A study of Sus scrofa with 4 samples.

Results

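The 8 genes described here are the VEGF ligands VEGFA, VEGFC and PGF, the VEGF receptors KDR, FLT1 and FLT4, and the co-receptors NRP1 and NRP2. They were taken by gene symbol, and all 8 were found among the 20648 genes of the single-cell count tables. The libraries came from regenerated bone of Bama mini-pigs, a small breed of the domestic pig (Sus scrofa), aged 8 months. The labels divide them into a 1797 peptide group of 2 libraries and a control peptide group of 2 libraries. They give neither the sequence nor the dose of a peptide, and further control samples that the design mentions were not analysed here. All libraries were made with 10x Genomics 3′ chemistry from tissue digested with collagenase and depleted of red cells by lysis. The labels do not say whether each library is from its own animal, so the p-values below measure only the spread between these libraries, which may be technical.

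VEGF ligands are secreted growth factors that drive blood vessel and lymphatic vessel growth through receptor tyrosine kinases on endothelial cells. VEGFA binds KDR and FLT1, PGF binds FLT1, and VEGFC binds FLT4 and, after processing, KDR. FLT1 binds VEGFA tightly with weak kinase activity and can act as a decoy, also as a soluble form, and NRP1 and NRP2 are co-receptors that bind class 3 semaphorins as well. In bone, vessels and bone-forming cells are known to grow together, and VEGFA from cells of the osteoblast lineage is known to act on vessels, osteoblasts and osteoclasts.

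In the Sscrofa11.1 build the genes are all annotated as protein coding. VEGFA lies at chromosome 7, 38746393 to 38762282, and PGF at chromosome 7, 98149510 to 98162784. VEGFC lies at chromosome 15, 39037764 to 39136234, and NRP2 on the same chromosome at 108974246 to 109092316. KDR lies at chromosome 8, 41809116 to 41856379, FLT1 at chromosome 11, 5620698 to 5797095, FLT4 at chromosome 2, 78076008 to 78115137, and NRP1 at chromosome 10, 56280673 to 56430832. The counts are of 3′ ends over a whole gene, so isoforms such as soluble FLT1 could not be told apart, and levels of different genes are not compared with each other.

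The tables held 87844392 and 98758416 UMIs (counted RNA molecules) in the 1797 libraries, and 96410216 and 98294208 UMIs in the control libraries. After filters and removal of 1798 called doublets, 49137 of 54060 barcodes were kept as cells, and pairs of libraries shared 42 to 63 barcode sequences. The cells formed 38 clusters, of which 30 were grouped into 18 classes by marker genes. The other 8 clusters, with 29.0% of the cells, stayed unnamed. A class name stands for clusters that carry the markers of that cell type. The endothelial class had all 12 of its markers higher than in the other cells, and the stromal or osteoblast class all 15, so both vessel and bone-forming cells of the labelled tissue were present. The classes did not fill evenly: endothelial cells made up 4.26% and 0.481% of the cells in the 1797 libraries, against 0.721% and 1.63% in those of the control peptide. Stromal or osteoblast cells made up 2.09% and 0.323% of the cells in the 1797 libraries, against 0.791% and 1.74% in those of the control peptide. The second 1797 library therefore rests on 61 endothelial and 41 stromal or osteoblast cells. Levels are given as CPM, the UMIs of a gene scaled to a common total of all UMIs summed over a class in a library. Since the classes were made from these same cells, differences between classes are described and were not tested. The 8 genes were kept out of the genes used for clustering.

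**Figure D1:**
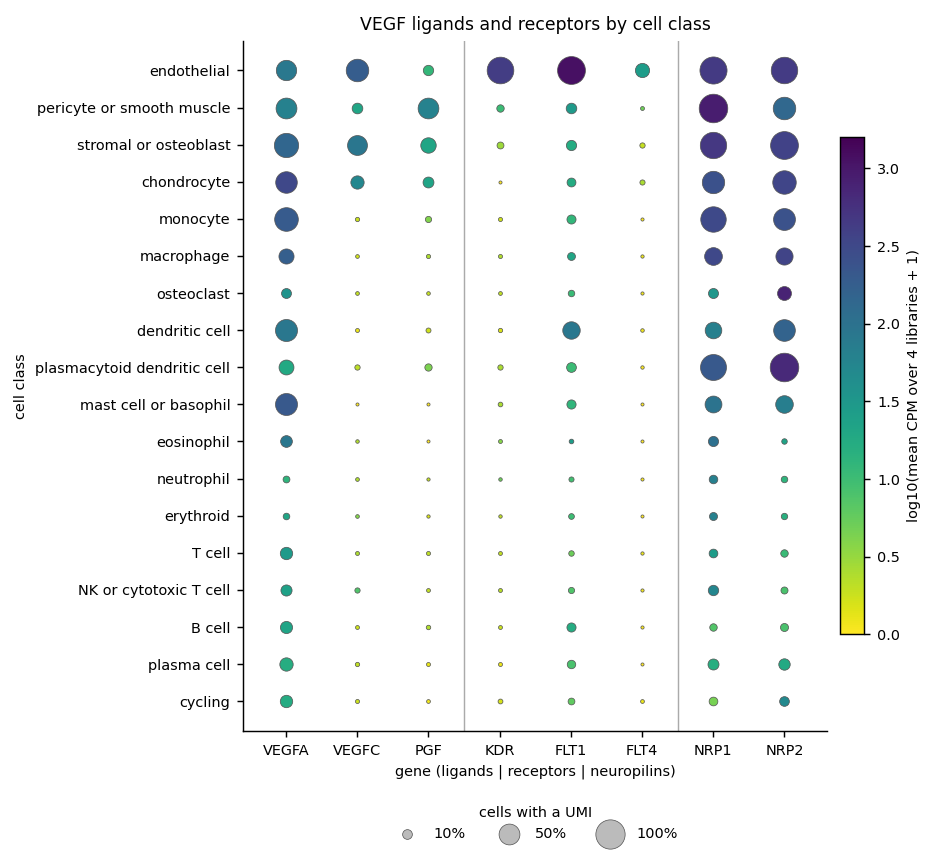
Level of the 8 genes in each cell class. Colour gives the mean CPM over the 4 libraries on a log10 scale after adding 1, and dot area grows with the percent of cells with a UMI. KDR, FLT1 and FLT4 are highest in the endothelial row, while NRP1 and NRP2 reach mesenchymal and myeloid rows as well.

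VEGFA, the main ligand of blood vessel growth, was found in many classes, with the highest levels in mesenchymal and myeloid ones. Chondrocyte-class cells had 368 and 199 CPM in the 1797 libraries and 179 and 529 CPM in the control libraries, from 16 to 91 cells per library. Mast cells or basophils, with 6 to 30 cells per library, averaged 209 CPM over the 4 libraries. Among the classes holding 20 or more cells in each of the libraries, monocytes were highest, at 190 and 211 CPM in the 1797 libraries and 202 and 183 CPM in the control libraries. This was also the narrowest spread among the high classes (196 ± 12.6 CPM, SD, n = 4). Macrophages followed at 175 ± 52.9 CPM and stromal or osteoblast cells at 144 ± 75.8 CPM (SD, n = 4 each), and the ranges of these 3 classes overlapped. Eosinophils averaged 85.1 CPM, dendritic cells 84.5 CPM and endothelial cells 81.4 CPM, and these neighbours overlapped too. All other classes tested lay below the lowest endothelial library of 60.4 CPM, down to the neutrophils at 12 CPM. The neutrophil class held 3043 cells. An unnamed cluster of 10260 cells, whose best matching markers were those of neutrophils, lay outside it, so neutrophil values cover the named class only. Monocytes held 30.2% of the VEGFA UMIs of a library on average, macrophages 13.5%, T cells 9.14%, stromal or osteoblast cells 8.27% and endothelial cells 5.73%. The unnamed clusters held 14.0%.

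A UMI of VEGFA was found in 64.8% of monocytes and in 68.3% of stromal or osteoblast cells, against 4.40% of the neutrophil class. The median depths differed, at 16867 UMIs per monocyte and 28911 per stromal or osteoblast cell, against 2908 per neutrophil. After each cell was thinned to 1000 UMIs, the shares were 15.3% in monocytes and 11.6% in stromal or osteoblast cells, against 1.00% in neutrophils, 2.46% in B cells and 2.79% in T cells. Within macrophages the 3 clusters had different levels. The cluster led by MRC1, a mannose receptor of tissue macrophages, and CXCL13 had 283 and 270 CPM of VEGFA in the 1797 libraries and 205 and 296 CPM in the control libraries. The cluster led by EPB41L3 and APOE had 100 and 143 CPM in the 1797 libraries and 69.4 and 116 CPM in the control libraries, below the first cluster in every library. The cluster with the most cells, 1620 of 2523 and shallow at a median of 834 UMIs, had 49.5 and 34.5 CPM in the 1797 libraries and 18.4 and 21.0 CPM in the control libraries, from 54 UMIs in all. An unnamed cluster of 199 cells had FCER1A and MHC class II genes among its leading genes. It had 313 and 218 CPM in the 1797 libraries and 215 and 227 CPM in the control libraries. Osteoclasts, the bone-resorbing cells, averaged 35.0 CPM.

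VEGFC, the main ligand of lymphatic growth, had a much narrower source. Endothelial cells had 189 and 149 CPM in the 1797 libraries and 166 and 228 CPM in the control libraries. Stromal or osteoblast cells had 107 and 118 CPM in the 1797 libraries and 15.6 and 104 CPM in the control libraries. The endothelial range lay above the stromal range, and the stromal range lay above the next class, NK or cytotoxic T cells, which averaged 6.6 CPM. Endothelial cells held 50.2% of the VEGFC UMIs of a library on average and stromal or osteoblast cells 27.7%. Chondrocytes, with few cells, averaged 51.2 CPM and pericytes or smooth muscle cells 20.1 CPM. Monocytes, the class richest in VEGFA UMIs, averaged 0.831 CPM of VEGFC.

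The stromal VEGFC came from some of the stromal clusters and not from others. Over all libraries together, the cluster led by CXCL12, a chemokine of marrow stromal cells, had 174 CPM of VEGFC, the cluster led by SFRP4 had 102 CPM and the cluster led by MMP13 had 66.3 CPM. The cluster led by BGLAP (osteocalcin) and IFITM5, both genes of mature osteoblasts, had 1.74 CPM, from 3 UMIs in 61 cells. VEGFA was present in all of them: the same 4 clusters had 126, 88.2, 148 and 108 CPM of VEGFA. The second gene that led the CXCL12 cluster was CCBE1, a secreted protein known to promote the processing of VEGFC. It was named after the cluster's leading genes were seen. CCBE1 had 255 CPM in the CXCL12 cluster, 34.6 CPM in the SFRP4 cluster, 64.9 CPM in the MMP13 cluster and 5.79 CPM in the BGLAP cluster. The CXCL12 cluster also had 48.1 CPM of FLT1 and 9.80 CPM of KDR, both highest in endothelial cells here. By library, FLT1 had 22 and 52 UMIs in the 1797 libraries, against 0 and 83 UMIs in the control libraries. KDR had 4 and 0 UMIs in the 1797 libraries, against 1 and 27 UMIs in the control libraries. The part of endothelial RNA in the VEGFC of this cluster was not tested. Beside 14 stromal markers it carried 6 pericyte or smooth muscle markers, with mean log2 folds of 2.37 and 1.51. At a Leiden resolution of 2.0, a cluster of 65 cells led by CXCL12 was named pericyte or smooth muscle. The other stromal cluster, of 71 shallow cells with a median of 3797 UMIs, was led by CHAC1 and carried BGLAP and DMP1. It had the highest VEGFA of the stromal clusters, 394 and 396 CPM in the 1797 libraries and 290 and 453 CPM in the control libraries. These values came from 42 and 9 UMIs in the 1797 libraries and 45 and 15 UMIs in the control libraries. The cluster held 6 cells in 1797 replicate 2 and 7 in control replicate 2. Over all libraries it had 15.7 CPM of VEGFC, from 5 UMIs.

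PGF, the placental growth factor that binds FLT1, was low throughout and highest in mural cells. Pericytes or smooth muscle cells had 81.5 and 23.8 CPM in the 1797 libraries and 68.8 and 60.3 CPM in the control libraries. In 2 of these libraries, 1797 replicate 2 and control replicate 1, the class held 17 cells. Stromal or osteoblast cells averaged 19.7 CPM and endothelial cells 11.2 CPM, with overlapping ranges. A UMI of PGF was found in 49.7% of pericytes or smooth muscle cells, against 0.819% of T cells. Monocytes held 12.1% of the PGF UMIs of a library at a level of 3.07 CPM. Of the other VEGF ligands, VEGFB had 13.5 and 12 CPM over all cells in the 1797 libraries and 10.7 and 11.6 CPM in the control libraries. VEGFD stayed below 1 CPM in all 4 libraries.

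**Figure D2:**
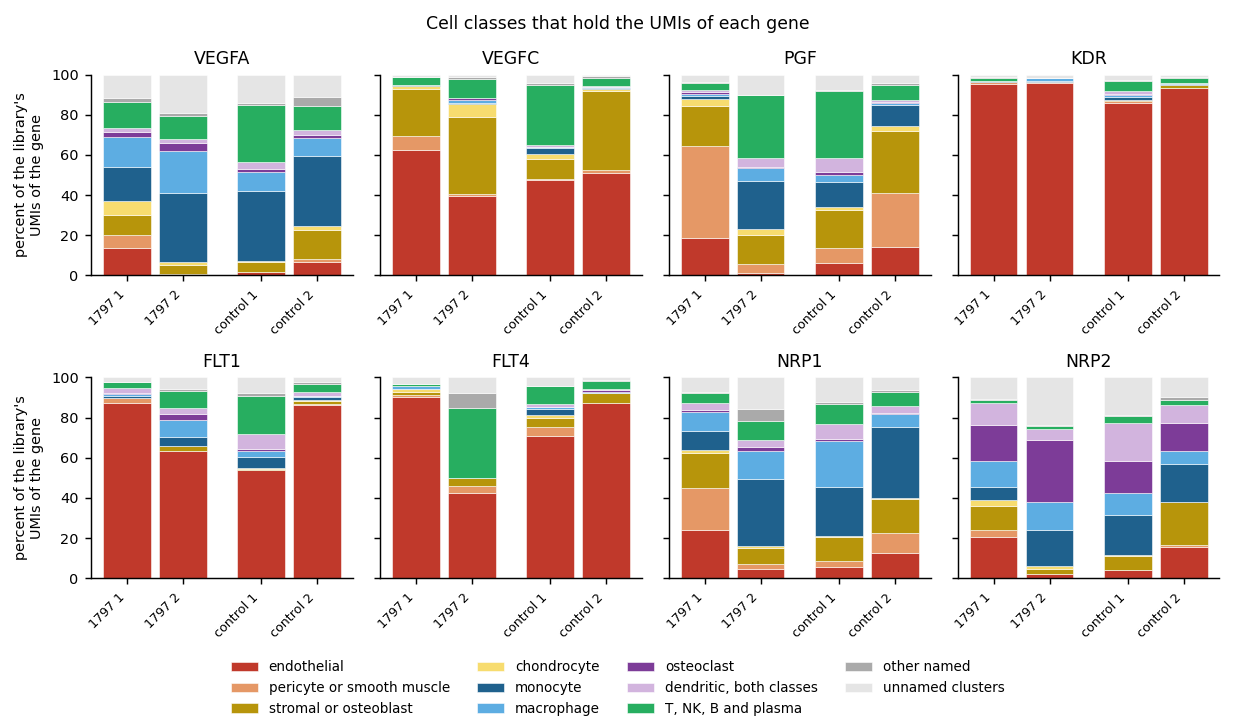
Share of each library's UMIs of a gene that each group of cell classes holds, with the 1797 libraries on the left of each panel and the control libraries on the right. Endothelial cells hold 85.8% to 95.7% of the KDR UMIs in every library, while VEGFA and NRP2 are spread over many classes.

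KDR, the main signalling receptor for VEGFA, was nearly confined to endothelial cells. They had 391 and 351 CPM in the 1797 libraries and 537 and 448 CPM in the control libraries. They held 95.2% and 95.7% of the KDR UMIs in the 1797 libraries, against 85.8% and 93.3% in those of the control peptide. No other class with 20 or more cells per library averaged more than the neutrophils' 4.18 CPM, a value that came from 15 UMIs. Pericytes or smooth muscle cells averaged 9.59 CPM. A UMI of KDR was found in 82.8% of endothelial cells, with a median depth of 14343 UMIs, against 0.664% of B cells, with a median depth of 8721 UMIs. In T cells, KDR had 30 and 0 UMIs in the 1797 libraries and 16 and 28 UMIs in the control libraries. In plasmacytoid dendritic cells it had 1 and 0 UMIs in the 1797 libraries and 9 and 5 UMIs in the control libraries. In T cells the libraries thus stood in the order of the endothelial cell shares, and in plasmacytoid dendritic cells they did not. Library 1797 replicate 2 had no UMI in either class. The source of the low levels outside the endothelium was not tested.

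FLT1 was also highest in endothelial cells, at 1147 and 1289 CPM in the 1797 libraries and 1144 and 1148 CPM in the control libraries. That was the smallest relative spread of any receptor in this class. Endothelial cells held 72.7% of the FLT1 UMIs of a library on average, a smaller share than for KDR. The next class was dendritic cells, with 179 and 38.5 CPM in the 1797 libraries and 57.7 and 63.4 CPM in the control libraries. The first 1797 library was high and the second was below both controls. The ratio of FLT1 to KDR UMIs was 2.78 in endothelial cells and 4.58 in T cells, against 165 in dendritic cells, 22.5 in B cells, 17.1 in macrophages and 16 in monocytes. Dendritic cells had 496 UMIs of FLT1 and 3 of KDR. Both dendritic clusters, which carry FLT3, had FLT1, at 84.7 and 75.2 CPM over all libraries, and so did the unnamed FCER1A cluster, at 56.5 CPM. B cells had a low and even level of 18.4 and 12.4 CPM in the 1797 libraries and 14.4 and 18.3 CPM in the control libraries.

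Both receptors were usually found in the same endothelial cell. A UMI of KDR and a UMI of FLT1 stood together in 77.7% and 67.2% of endothelial cells in the 1797 libraries, against 73.9% and 86.6% in those of the control peptide. Neither was found in 5.57% and 8.20% in the 1797 libraries, against 7.61% and 2.14% in those of the control peptide. The library with the most UMIs per endothelial cell, control replicate 2, had the highest share of cells with both.

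FLT4, the receptor for VEGFC, was the sparsest receptor, with 441 UMIs in all. Endothelial cells held 367 of them, at 15.8 and 10.2 CPM in the 1797 libraries and 51.1 and 30.8 CPM in the control libraries. Every other class with enough cells averaged under 1 CPM, the highest being stromal or osteoblast cells at 0.918 CPM.

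NRP1, the co-receptor for VEGFA and semaphorin 3A, was highest outside the endothelium. Pericytes or smooth muscle cells had 876 and 821 CPM in the 1797 libraries and 1011 and 820 CPM in the control libraries, above the level of any other class in each library. Stromal or osteoblast cells averaged 476 ± 120 CPM and endothelial cells 448 ± 70.7 CPM (SD, n = 4 each), with overlapping ranges. Macrophages at 320 CPM and monocytes at 312 CPM followed, also overlapping. Monocytes held the largest share of NRP1 UMIs, 25.5% of a library on average, and endothelial cells held 11.8%. Among stromal clusters, the CXCL12 cluster, which also carried pericyte or smooth muscle markers, averaged 797 CPM and the BGLAP cluster 271 CPM.

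NRP2, the co-receptor known for VEGFC and semaphorin 3F, was highest in osteoclasts. They had 776 and 786 CPM in the 1797 libraries and 739 and 794 CPM in the control libraries, so the 4 libraries differed little. This level comes from a minority of the class, of which 21.8% of cells had a UMI of NRP2. The deep osteoclast cluster, 385 of 2279 cells, carries all 9 osteoclast markers, averaged 916 CPM, and had a UMI of NRP2 in 98.2% of cells. The largest osteoclast cluster, 1826 cells with a median of 858 UMIs, averaged 54.2 CPM, with a UMI in 5.15% of cells. After thinning to 1000 UMIs, of the cells deep enough, the shares were 56.3% and 3.90%. NRP1 in that cluster averaged 33.1 CPM. Plasmacytoid dendritic cells were next, with 835 and 561 CPM in the 1797 libraries and 711 and 602 CPM in the control libraries, and overlapped with osteoclasts. Endothelial cells averaged 444 CPM, stromal or osteoblast cells 366 CPM, macrophages 362 CPM and monocytes 248 CPM. An unnamed cluster of 409 cells averaged 614 CPM. Its best matching markers were those of cycling cells, but its leading genes held more markers of macrophages, MSR1 among them.

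**Figure D3:**
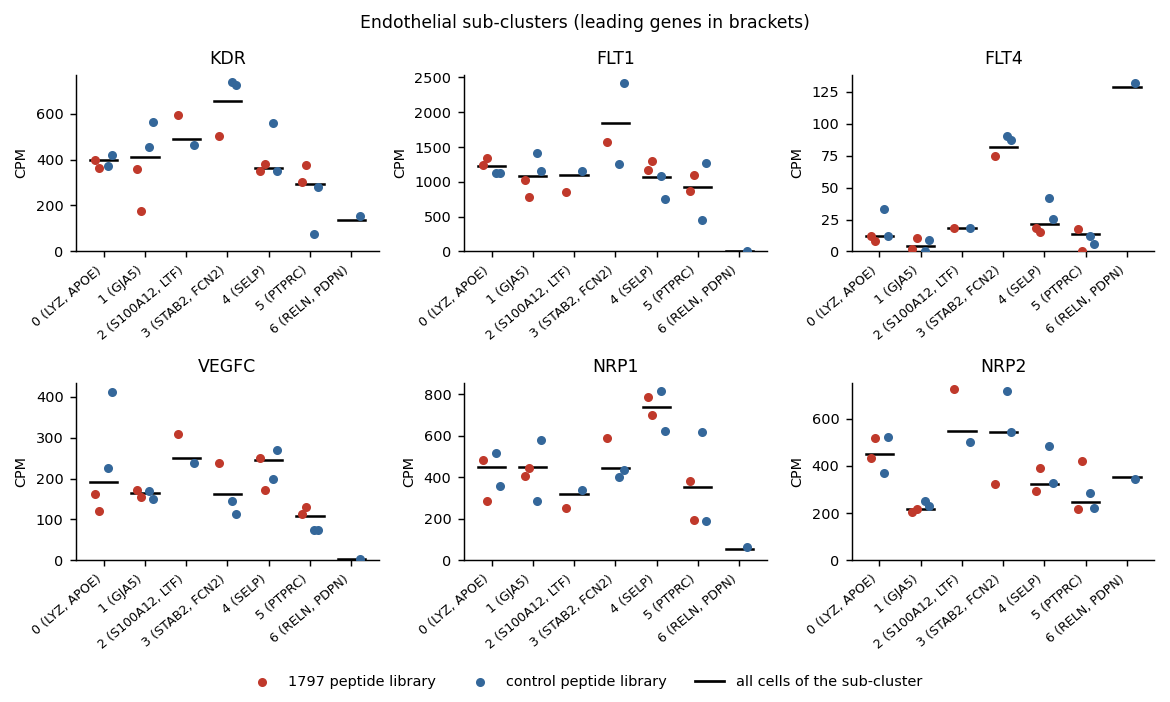
CPM of the receptors and VEGFC in the endothelial sub-clusters, which are named by leading genes. Black lines give all cells of a sub-cluster, and points give libraries with at least 5 cells in it. FLT4 is high in the STAB2 and RELN sub-clusters, and FLT1 is near 0 in the RELN sub-cluster.

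The endothelial cells were clustered again without the 8 genes, and 7 sub-clusters resulted. A sub-cluster of 93 cells was led by STAB2 and FCN2, of which STAB2 is a scavenger receptor known from sinusoidal endothelium. It had 657 CPM of KDR, 1849 CPM of FLT1 and 82.2 CPM of FLT4. Over all libraries together these KDR and FLT1 values were the highest of the 7. By library, KDR was highest there in both control libraries and in neither 1797 library, and FLT1 was highest there in every library but control replicate 1. The values of 1797 replicate 2 there rest on 3 cells. A sub-cluster of 14 cells was led by RELN, PDPN and MMRN1, which are known genes of lymphatic endothelium, and had 1158 CPM of PROX1, the lymphatic transcription factor. It had the highest FLT4, 129 CPM, with 139 CPM of KDR, 10.7 CPM of FLT1 and 2.68 CPM of VEGFC. Its cells came from 2 libraries, 3 from 1797 replicate 1 and 11 from control replicate 2.

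The remaining sub-clusters had between 4.57 and 21.4 CPM of FLT4. The sub-cluster led by GJA5, a connexin known from arteries, had 4.57 CPM of FLT4, 109 CPM of DLL4 and 213 CPM of ESM1 over all libraries. Its DLL4 was above that of every other sub-cluster in 1797 replicate 1 and control replicate 2, and its ESM1 in every library but 1797 replicate 2, where it held 5 cells. DLL4 and ESM1 are known targets of VEGF signalling in sprouting endothelium. The sub-cluster with SELP, a selectin known from venules, among its leading genes had the highest NRP1, 739 CPM, and 246 CPM of VEGFC. Another sub-cluster had S100A12 and LTF, which are neutrophil genes, among its leading genes. A further one was led by PTPRC, the pan-leukocyte gene, so transcripts of blood cells were present in part of the endothelial class. How the peptide groups filled these sub-clusters was not tested. The STAB2 sub-cluster held 4.80% and 4.92% of the endothelial cells in the 1797 libraries, against 39.1% and 15.5% in those of the control peptide.

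Over the 14 classes with 20 or more cells per library, the genes whose levels followed each of the 8 most closely were found by Pearson's r of log2(CPM + 1). For KDR these were SOX7 (r = 0.994), ADGRL4 and SOX17. For FLT4 they were SLC38A3 (0.995), C14H10orf10 and PCDH12, for FLT1 CX3CL1 (0.961), HTR4 and HOXB3, and for VEGFC PDE1C (0.977), GJA5 and FBN1. VEGFA was closest to SLC2A5 (0.899), PGF to RPS6KL1 (0.945), NRP1 to ARHGAP21 (0.860) and NRP2 to DOCK1 (0.947). The 14 points share libraries and depths, and the genes were picked for likeness, so these values describe the pattern only.

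The 1797 and control libraries were compared over all cells and within each class by the quasi-likelihood test of edgeR on summed counts, adjusted over all genes of a fit. None of the 8 genes was called at an adjusted p of 0.05 in any fit. The background was as low: 0 of 16654 genes (0%) were called over all cells, with 264 (1.59%) at an unadjusted p under 0.05. DESeq2 called 21 genes (0.126%) over all cells, none of them among the 8. Within the classes described below DESeq2 called 1.08% of genes in macrophages, 0.354% in T cells, 0.293% in monocytes, 0.229% in endothelial cells, 0.202% in plasmacytoid dendritic cells, 0.163% in dendritic cells and 0.112% in NK or cytotoxic T cells. It called 0.0855% in osteoclasts, 0.0309% in eosinophils and 0.0162% in stromal or osteoblast cells, again with none of the 8. Within the 14 classes edgeR called 0 genes, apart from 1 gene (0.0112%) in plasmacytoid dendritic cells and 107 genes (1.15%) in plasma cells. A p that misses the threshold does not show that the groups were alike, and an interval from 2 libraries against 2 is wide.

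Over all cells, VEGFA had 77.8 and 86.2 CPM in the 1797 libraries, against 57.1 and 67.9 CPM in the control libraries. Both 1797 libraries were above both controls, as for 12.6% of all genes, with a log2 fold change of 0.38 ± 0.20 (SE; edgeR adjusted p = 1). NRP2 had 200 and 225 CPM in the 1797 libraries, against 140 and 164 CPM in the control libraries. These did not overlap either, with a log2 fold change of 0.47 ± 0.20 (edgeR adjusted p = 1). The other 6 genes overlapped between the groups over all cells. Each was higher in 1797 replicate 1 and control replicate 2, the libraries with the most endothelial cells, than in the other 2 libraries. In such sums fewer cells of a type and less RNA per cell cannot be told apart. KDR, for example, had 44.3 and 4.20 CPM in the 1797 libraries, against 6.76 and 27.6 CPM in the control libraries, in the order of the endothelial cell shares. Its log2 fold change was 0.44 ± 1.21 with all libraries and -1.97 without 1797 replicate 1.

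**Figure D4:**
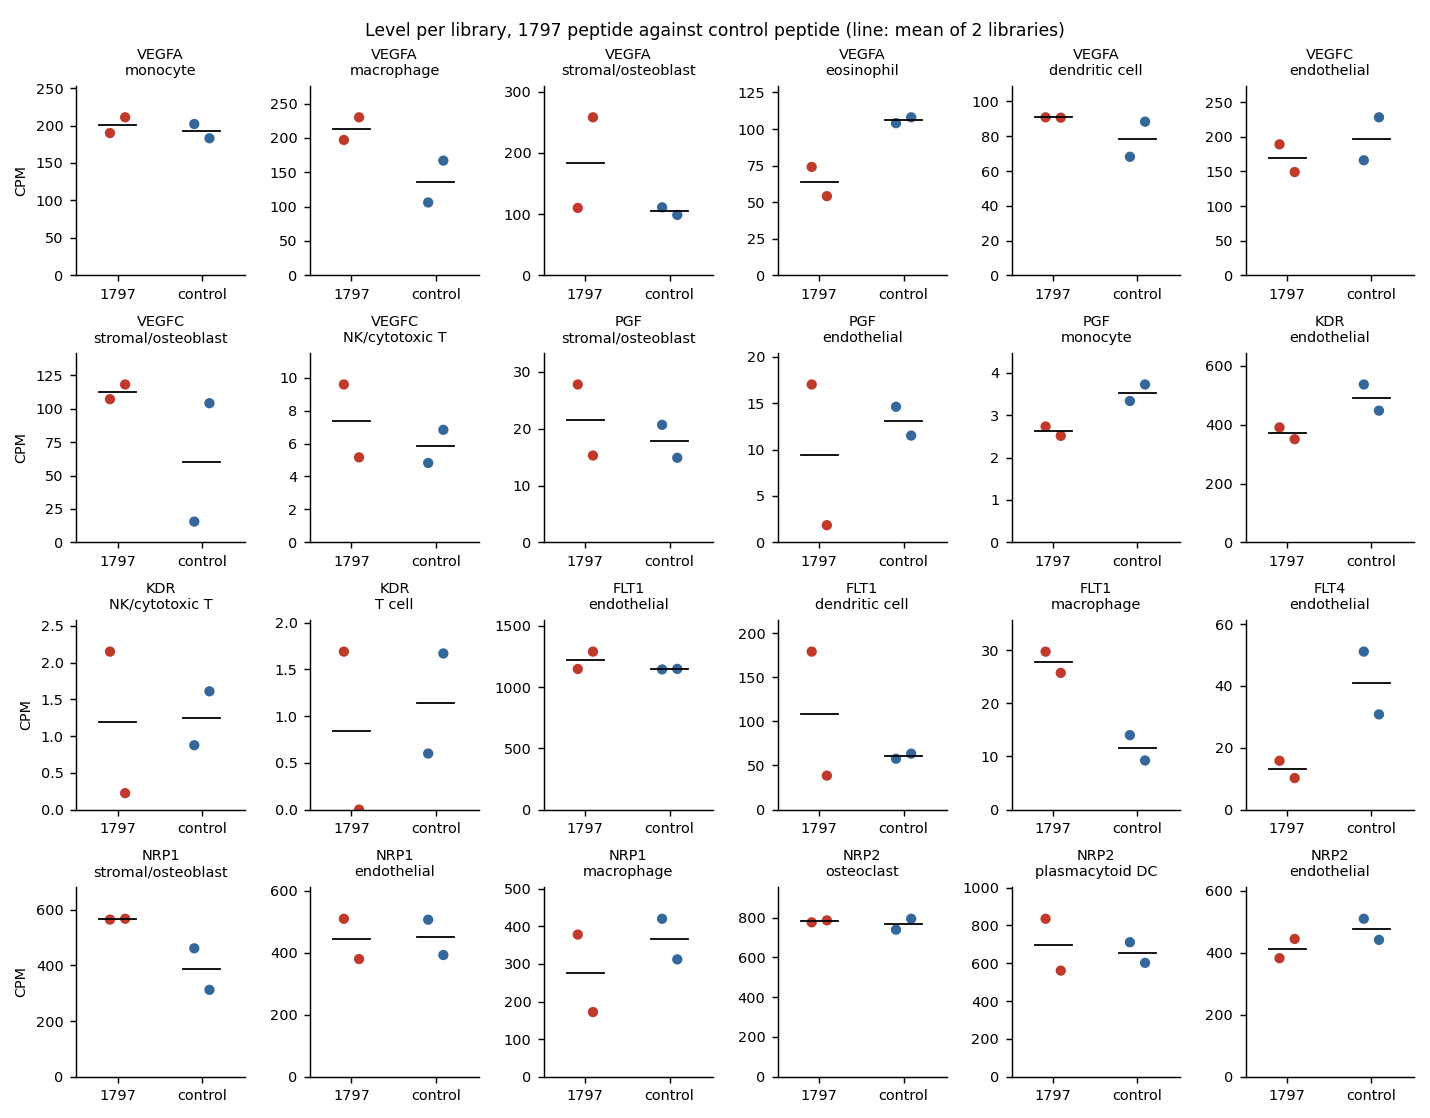
CPM of the genes in the classes compared, 1797 libraries on the left and control libraries on the right of each panel; lines are means of 2 libraries. FLT1 in macrophages is higher in both 1797 libraries, FLT4 in endothelial cells is lower, and most other panels overlap.

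Among the ligand sources, the VEGFA level of monocytes overlapped between the groups, with a log2 fold change of 0.13 ± 0.19 (edgeR adjusted p = 0.972). In macrophages VEGFA had 197 and 230 CPM in the 1797 libraries, against 106 and 167 CPM in the control libraries. The groups did not overlap, as for 19.6% of genes in that class with both 1797 libraries above, and the log2 fold change came to 0.69 ± 0.26 (SE; edgeR adjusted p = 0.442). The class was made up differently in the groups. The MRC1 cluster, with the higher VEGFA, gave 55.3% and 71.9% of macrophage UMIs in the 1797 libraries, against 31.1% and 37.1% in those of the control peptide. Within that cluster and in the EPB41L3 and APOE cluster the VEGFA values given above overlapped between the groups. In the shallow cluster both 1797 libraries were above both controls. These clusters were read after the values were seen and were not tested, and the part of the make-up in the class value was not tested.

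In stromal or osteoblast cells VEGFA had 110 and 258 CPM in the 1797 libraries, against 111 and 98.6 CPM in the control libraries. The second 1797 library was high and the first lay among the controls, so the log2 fold change of 0.83 ± 0.45 (edgeR adjusted p = 0.999) became 0.06 without 1797 replicate 2. VEGFC in these cells, with the values given above, was lowest in control replicate 1, and its log2 fold change was 0.91 ± 0.74 (edgeR adjusted p = 0.999). The control libraries decided the value. Without control replicate 2 the log2 fold change was 2.84 with an edgeR adjusted p of 0.0162, and without control replicate 1 it was 0.16. The BGLAP cluster, which nearly lacks VEGFC, gave 7.44% and 8.68% of stromal UMIs in the 1797 libraries, against 45.7% in control replicate 1 and 2.26% in control replicate 2. Within clusters control replicate 1 was the lowest library in the CXCL12 cluster, but not in the MMP13 and SFRP4 clusters. The SFRP4 cluster had 116 and 27.8 CPM of VEGFC in the 1797 libraries, against 89.8 and 103 CPM in the control libraries. The value of 89.8 came from 6 UMIs in 3 cells of control replicate 1. The CXCL12 cluster had 208 and 345 CPM of VEGFC in the 1797 libraries, against 34.4 and 134 CPM in the control libraries. The MMP13 cluster had 60.2 and 8.37 CPM in the 1797 libraries, against 23.7 and 97.5 CPM in the control libraries, and 2 UMIs gave the value of 8.37.

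Eosinophils had 74.1 and 54.1 CPM of VEGFA in the 1797 libraries, against 104 and 108 CPM in the control libraries, from 11 to 122 UMIs. Both 1797 libraries were below both controls, as for 12.4% of genes in that class, with a log2 fold change of -0.74 ± 0.49 (edgeR adjusted p = 1). The direction turned to 0.28 when cells were clustered at a Leiden resolution of 0.5. Dendritic cells had 90.9 and 90.7 CPM in the 1797 libraries, against 68.2 and 88.4 CPM in the control libraries, as for 21.6% of genes with both 1797 libraries above, with a log2 fold change of 0.17 ± 0.25 (edgeR adjusted p = 0.940). This turned to -0.11 when the 8 genes were allowed for clustering. Endothelial VEGFC overlapped between the groups, with a log2 fold change of -0.17 ± 0.28 (edgeR adjusted p = 0.999). PGF overlapped in stromal or osteoblast cells and in endothelial cells, where 1797 replicate 2 had 2 UMIs. In monocytes it had 2.73 and 2.51 CPM in the 1797 libraries, against 3.33 and 3.72 CPM in the control libraries, as for 22% of genes with both 1797 libraries below, with a log2 fold change of -0.36 ± 0.38 (edgeR adjusted p = 0.967).

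Among the receptors, endothelial KDR was lower in both 1797 libraries than in both control libraries, as for 20.2% of genes in endothelial cells, with a log2 fold change of -0.34 ± 0.21 (edgeR adjusted p = 0.999). Endothelial FLT1 overlapped, with a log2 fold change of 0.15 ± 0.21 (edgeR adjusted p = 0.999). Endothelial FLT4 showed the largest difference of the 8 genes in that class, with a log2 fold change of -1.45 ± 0.37 (edgeR adjusted p = 0.861). Its unadjusted p was under 0.05, as it was for 4.30% of all genes there. The 1797 libraries counted 141 and 11 UMIs and the control libraries 49 and 166 UMIs. Without 1797 replicate 1 the log2 fold change was -1.91 with an edgeR adjusted p of 0.0419.

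The STAB2 and RELN sub-clusters, which had the most FLT4, were filled differently in the libraries. Without the cells of both, FLT4 had 13.2 and 8.95 CPM in the 1797 libraries, against 25.8 and 17.4 CPM in the control libraries. The groups still did not overlap, on 9 and 15 UMIs in the smaller libraries. KDR without these cells had 389 and 351 CPM in the 1797 libraries, against 408 and 438 CPM in the control libraries. These cells were chosen after the values were seen, so no test was made. SEMA3A, a semaphorin that binds NRP1 and a leading gene of the STAB2 sub-cluster, had 21.6 and 84.6 CPM in endothelial cells of the 1797 libraries, against 235 and 186 CPM in the control libraries. Its log2 fold change was -2.03 ± 0.56 (edgeR adjusted p = 0.973).

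FLT1 in macrophages had 29.7 and 25.7 CPM in the 1797 libraries, against 14.0 and 9.24 CPM in the control libraries. The groups did not overlap, and the log2 fold change came to 1.28 ± 0.27 (SE; edgeR adjusted p = 0.357; DESeq2 adjusted p = 0.114). Its unadjusted p was under 0.05, as was that of VEGFA, of NRP2 and of 10.8% of all genes in macrophages. By cluster, the groups were apart in one of the deeper macrophage clusters and not in the other, which was read after the values were seen and was not tested. In the EPB41L3 and APOE cluster FLT1 had 35.9 and 52.2 CPM in the 1797 libraries (62 and 92 UMIs), against 9.96 and 6.50 CPM in the control libraries (26 and 10 UMIs). In the MRC1 cluster it had 26.5 and 18.1 CPM in the 1797 libraries, against 22.5 and 14.5 CPM in the control libraries, which overlap. KDR in the EPB41L3 and APOE cluster had 1 and 3 UMIs in the 1797 libraries and 2 and 4 UMIs in the control libraries. The summed level of the 12 endothelial markers, which leave out the receptors, was 258 to 305 CPM in macrophages of the 1797 libraries and 258 to 330 CPM in macrophages of the control libraries. In the EPB41L3 and APOE cluster PECAM1, an endothelial marker that leukocytes also express, had 170 and 138 CPM in the 1797 libraries, against 85.1 and 120 CPM in the control libraries. CDH5, a marker of endothelium, had 3 and 0 UMIs there in the 1797 libraries and 0 in both control libraries. The part of endothelial RNA in the FLT1 difference was not tested. In endothelial cells the same sum of 12 markers was 4737 to 5140 CPM in the 1797 libraries and 4366 to 4797 CPM in the control libraries. In neutrophils it was 777 to 1090 CPM in the 1797 libraries and 648 to 1508 CPM in the control libraries. Of these markers, PECAM1 and ERG had 73.1 and 166 CPM outside the endothelial class, so the sum is no measure of endothelial RNA alone.

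Of the low levels outside the main classes, VEGFC in NK or cytotoxic T cells had 9.58 and 5.16 CPM in the 1797 libraries, against 4.82 and 6.83 CPM in the control libraries, and a log2 fold change of 0.41 ± 0.39 (edgeR adjusted p = 0.999). KDR in NK or cytotoxic T cells and in T cells overlapped between the groups, at 0 to 2.15 CPM in the 1797 libraries and 0.600 to 1.67 CPM in the control libraries.

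In dendritic cells FLT1 rested on 1797 replicate 1. The log2 fold change was 0.80 ± 0.63 with all libraries (edgeR adjusted p = 0.888) and -0.71 without that library. NRP1 in stromal or osteoblast cells had 564 and 567 CPM in the 1797 libraries, against 461 and 312 CPM in the control libraries, with a log2 fold change of 0.56 ± 0.31 (edgeR adjusted p = 0.999). Both 1797 libraries were above both controls, as for 14.3% of genes in that class. Endothelial NRP1 overlapped, with a log2 fold change of 0.07 ± 0.24, as did NRP1 in macrophages, with -0.38 ± 0.36 (edgeR adjusted p = 0.999 and 0.711). NRP2 in osteoclasts had a log2 fold change of 0.03 ± 0.21 (edgeR adjusted p = 1), and both plasmacytoid dendritic cells and endothelial cells overlapped between the groups. In macrophages NRP2, which is outside the 3 classes fixed for it, had 445 and 402 CPM in the 1797 libraries, against 294 and 306 CPM in the control libraries. The log2 fold change there was 0.54 ± 0.16 (edgeR adjusted p = 0.388). Both 1797 libraries were above both controls, as for 19.6% of genes in macrophages. The MRC1 cluster had 544 and 454 CPM of NRP2 in the 1797 libraries, against 472 and 419 CPM in the control libraries, which overlap. The EPB41L3 and APOE cluster had 394 and 305 CPM, against 244 and 301 CPM. The shallow cluster had 49.5 and 65.6 CPM, against 70.1 and 71.7 CPM. The part of the make-up in the class value was not tested.

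**Figure D5:**
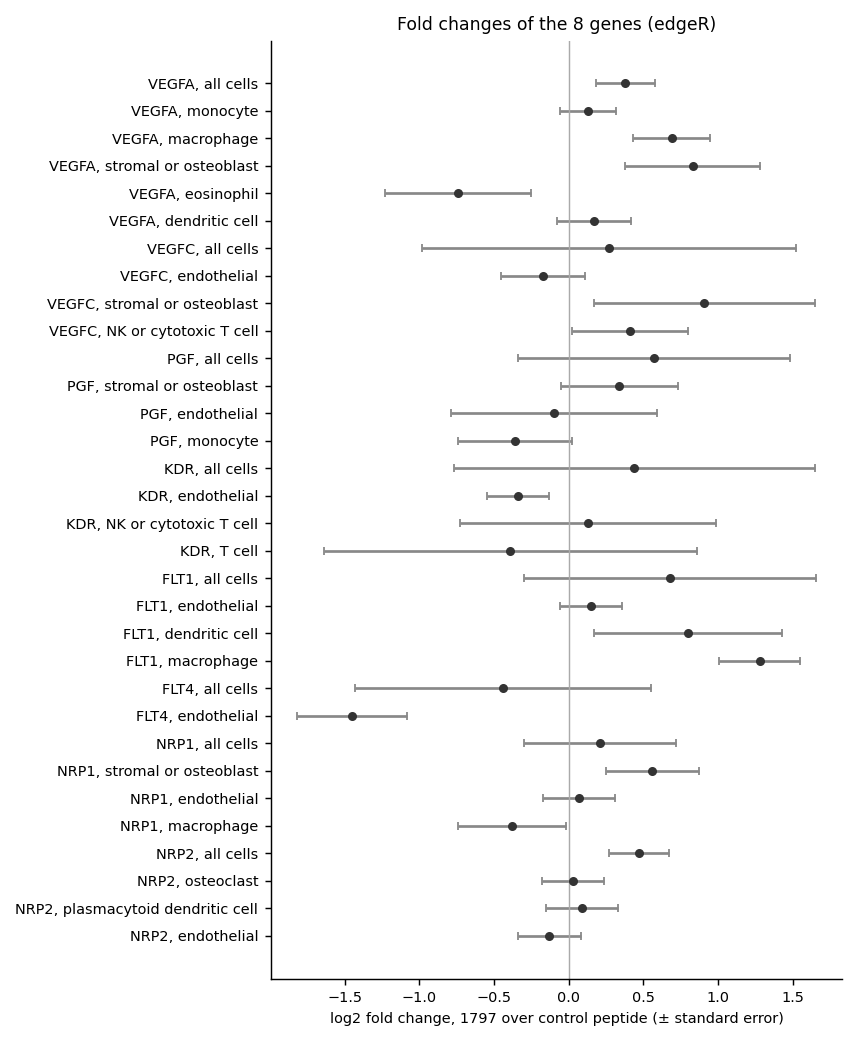
Log2 fold change of each gene, 1797 peptide over control peptide, in the fits compared, with standard errors from edgeR. FLT4 in endothelial cells (-1.45) and FLT1 in macrophages (1.28) lie farthest from 0, and no value passes the adjusted threshold.

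The other genes of the pathway were read from fixed lists in the same fits. Of 26 tested genes of VEGF receptor signalling in endothelial cells, 13 were higher and 13 lower in the 1797 libraries, none was called, and their median log2 fold change was 0.01, against -0.01 over all genes there. PPP3CA, a calcineurin subunit that acts downstream of the receptors, had 1180 and 1630 CPM in the 1797 libraries and 1200 and 1070 CPM in the control libraries. Of 17 endothelial genes known to be induced by VEGF or to mark tip cells, 11 were higher and 6 lower, none was called, and the median was 0.18. RCAN1, a calcineurin inhibitor induced by VEGF, had 375 and 353 CPM in the 1797 libraries and 173 and 362 CPM in the control libraries, which overlap.

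Of 5 tested lymphatic genes in endothelial cells, 2 were higher and 3 lower, none was called and 2 had an unadjusted edgeR p under 0.05, against 4.30% of all genes there. Both 1797 libraries were below both controls for 2 of the 5, against 20.2% of all genes. LYVE1 had 172 and 206 CPM in the 1797 libraries, against 140 and 213 CPM in the control libraries, and RELN had 20.4 and 0.930 CPM in the 1797 libraries, against 3.13 and 142 CPM in the control libraries. Both overlapped. PROX1 had 46.9 and 19.5 CPM in the 1797 libraries, against 74.1 and 84.9 CPM in the control libraries. MMRN1 had 8.16 and 6.51 CPM in the 1797 libraries, against 16.7 and 53.9 CPM in the control libraries, and these were the 2 genes with both 1797 libraries below both controls. Of 18 hypoxia response genes, which like VEGFA are induced by low oxygen, 11 were higher and 7 lower in macrophages with a median log2 fold change of 0.06. In monocytes the count was 11 higher and 7 lower with a median of 0.25, and in stromal or osteoblast cells 13 higher and 5 lower with a median of 0.22. None of them was called in these 3 classes, where all genes had medians of -0.02, -0.02 and -0.03. ENO1, a glycolytic enzyme, had 490 and 567 CPM in macrophages of the 1797 libraries, against 332 and 422 CPM in the control libraries, with a log2 fold change of 0.53 ± 0.20 (edgeR adjusted p = 0.441). In endothelial cells 9 were higher and 9 lower (median 0.02), and in neutrophils 4 were higher and 11 lower (median -0.2), with none called. Plasma cells, eosinophils and erythroid cells were outside the classes fixed for these lists. In plasma cells 9 of 17 tested hypoxia genes were higher and 8 lower, with a median of 0.08. Of these 17 edgeR called 2, against 1.15% of all genes in plasma cells. An unadjusted edgeR p under 0.05 was found for 5 of them, against 21.1% of all genes there. In eosinophils 2 of 15 tested hypoxia genes were higher and 13 lower, with a median of -0.73 and none called. Of all genes in eosinophils 49.3% were higher, with a median of -0.01. In erythroid cells 12 of 14 tested hypoxia genes were higher and 2 lower, with a median of 0.65 and none called. Of all genes in erythroid cells 52.6% were higher, with a median of 0.04. The shift was not particular to hypoxia genes, as 18 of 22 tested genes of VEGF receptor signalling were higher there, with a median of 0.46.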

How the data were processed

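The deposited values are UMI counts of each gene in each barcode, not normalized, in filtered matrices. They were made with Cell Ranger 5.0.0 on Sscrofa11.1 per the submitters' processing notes, and version 7.0.1 stands in the file headers. The other deposited files hold gene names and barcodes, which are other text and no measurement. Gene positions were read from RefSeq's annotation of that build. Barcodes with at least 200 genes and under 20% mitochondrial counts were kept, and doublets called by Scrublet in scanpy 1.11.5 (expected rate 0.1) were removed. Leiden clustering (resolution 1.0, 2000 variable genes without the 8 genes, 30 components, 15 neighbours) was run without integration, and clusters that held markers of more than 1 class were clustered again at 0.5. A name needed at least 3 markers with a log2 fold of 1 or more in 10% of cells and a mean log2 fold of 0.75. The naming rule was settled after the clusters were seen. Endothelial cells were clustered again on 1000 genes.

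Counts were summed per library and class and tested with edgeR 4.0.16 (TMM, filter on low counts, no covariate, Benjamini-Hochberg over all genes) where each library had at least 20 cells, in 14 classes and over all cells. The test was run on simulated data first. Differences of effects between classes were tested with limma 3.58.1. DESeq2 1.42.0, other size factors, no filter, a replicate block, leaving out 1 library at a time, keeping called doublets, a cell filter of 500 genes and 10% mitochondrial counts, Leiden resolutions of 0.5 and 2.0, and clustering with the 8 genes allowed served as alternatives. Fold changes are given over all cells and in the 3 classes with the highest level of a gene (5 for VEGFA). The genes, lists, markers and classes were chosen with earlier results of these data known. With 2 libraries against 2, an exact permutation test could not pass 0.05 and was not used. UMI totals limit the precision of low genes, and counts of a few UMIs carry counting error beside the spread between libraries.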

Additional observations from a re-analysis of the deposited data

Results flagged for a closer look

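For VEGFA the 1797 effect had opposite directions in 2 pairs of classes, with every library of 1 class above its controls and every library of the other below. Eosinophils against macrophages differed by -1.41 on the log2 scale (limma adjusted p = 0.991), and dendritic cells against eosinophils by 0.96 (limma adjusted p = 1). Neither difference passed the adjusted threshold. Both pairs rest on eosinophils, where VEGFA turned to 0.28 at a Leiden resolution of 0.5, and one also on dendritic cells, where it turned to -0.11 with the 8 genes allowed for clustering. Of 28 such differences between classes for the genes and classes compared, 0 passed it in limma, 2 had an unadjusted p under 0.05, and the lowest adjusted p was 0.689.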

How the results depend on the processing

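Of 412 single-gene fold changes recomputed under the alternatives, 379 kept their direction and 33 turned, 26 of them when a library was left out. NRP2 in osteoclasts turned to -0.09 with doublets kept, and to -0.03 with the stricter cell filter and at Leiden 0.5. VEGFA turned to 0.28 in eosinophils at Leiden 0.5 and to -0.11 in dendritic cells when the 8 genes were allowed for clustering. KDR in NK or cytotoxic T cells fell under the count filter in 4 settings (stricter cell filter, Leiden 0.5 and 2.0, 8 genes allowed) and gave no value there. The cause was not tested.

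Counts of called genes changed with the tool, the filter and the libraries used. DESeq2 called 21 genes over all cells, 30 in monocytes, 112 in macrophages, 2 in stromal or osteoblast cells, 1 in eosinophils, 11 in dendritic cells, 20 in endothelial cells, 13 in NK or cytotoxic T cells, 48 in T cells, 9 in osteoclasts and 18 in plasmacytoid dendritic cells, none of the 8 genes. Without the filter edgeR called 7 in monocytes, 105 in macrophages, 17 in stromal or osteoblast cells, 7 in eosinophils, 145 in dendritic cells, 174 in endothelial cells, 22 in NK or cytotoxic T cells, 4 in osteoclasts and 80 in plasmacytoid dendritic cells. These held 1 of the 8 genes, FLT4 in endothelial cells (-1.43, adjusted p = 0.0220). Other size factors called 2 in plasmacytoid dendritic cells.

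The labels number the libraries 1 and 2 in both groups but do not pair them, and same-numbered libraries deviated from their group means with r = -0.309 over all cells. With the replicate block, edgeR called 2 genes in eosinophils and 6 in plasmacytoid dendritic cells, and KDR turned to -0.02 over all cells and -0.01 in NK or cytotoxic T cells. With crossed pairing, chosen after seeing the data, it called 4 in endothelial cells and 2 in plasmacytoid dendritic cells.

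With 1 library left out, the lone library of a group is assumed to vary like the pair of the other group. Called genes then ranged from 19 to 119 in endothelial cells, 0 to 63 in stromal or osteoblast cells, 0 to 160 in plasmacytoid dendritic cells, 0 to 27 in NK or cytotoxic T cells, 0 to 18 in eosinophils, 0 to 8 in T cells, 0 to 6 in dendritic cells, 0 to 4 in monocytes and 0 to 1 in macrophages, and of the 8 genes 0 to 1 in endothelial and 0 to 1 in stromal or osteoblast cells. Over all cells the fold changes ranged from -1.71 to 2.25 for VEGFC, -1.24 to 1.34 for PGF, -1.97 to 1.80 for KDR, -1.03 to 1.80 for FLT1, -2.27 to 0.43 for FLT4 and -0.46 to 0.76 for NRP1. The lowest value of each of these 6 genes came without 1797 replicate 1. In endothelial cells they ranged from -1.91 to -1.16 for FLT4, -0.43 to 0.17 for VEGFC, -2.71 to 0.50 for PGF and -0.19 to 0.28 for NRP1. VEGFC there turned without control replicate 2, NRP1 without 1797 replicate 1 and PGF without 1797 replicate 2. In other classes they ranged from 0.16 to 2.84 for VEGFC and -0.14 to 0.65 for PGF in stromal or osteoblast cells, -0.02 to 0.30 for VEGFA in monocytes, -0.71 to 1.51 for FLT1 in dendritic cells, -1.01 to 0.08 for NRP1 in macrophages, -0.23 to 0.33 for NRP2 in plasmacytoid dendritic cells, -0.12 to 0.77 for VEGFC and -2.31 to 0.88 for KDR in NK or cytotoxic T cells, and -7.51 to 0.62 for KDR in T cells. FLT1 in macrophages ranged from 1.05 to 1.61 and VEGFA there from 0.39 to 1.08.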
